A study of Papio anubis with 24 samples.

Results

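The cluster of miR-132 and miR-212 consists of a pair of neighbouring hairpins that are cut from 1 primary transcript, and each hairpin can give a mature miRNA from either of its strands. The 4 mature miRNAs described here, hsa-miR-132-3p, hsa-miR-132-5p, hsa-miR-212-3p and hsa-miR-212-5p, were chosen by their names among the 2656 mature miRNAs of the deposited count table. Each of them stood under 1 precursor, so the highest row total, which the choice of rows used where a name has several precursors, decided nothing for them. The cluster itself was proposed with an earlier result of these data known, a difference of miR-132-3p between spontaneous and induced lesions. That contrast is therefore described below without a test. Every comparison of lesions with endometria reuses lesion libraries of that contrast. The estimates and tests of these comparisons are thus not independent of how the cluster was chosen.

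Transcription of miR-132 and miR-212 is induced by CREB, the cAMP-responsive transcription factor, and the cluster is best known from neurons, where it responds to activity. The 3p strands of both hairpins share their seed, the 5′ stretch through which a miRNA recognises its targets, and the 3p strand is the abundant product of both hairpins. In human cells miR-132 has been studied in endothelium, where it restrains a Ras-inhibiting protein during vessel growth, and in monocytes stimulated with bacterial products. In mouse the cluster has been studied in the mammary gland.

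The 24 small-RNA libraries came from 12 baboons (Papio anubis), each with 1 library of an endometriotic lesion and 1 of the eutopic endometrium, the lining inside the uterus. In 8 animals (PA7223, PA7254, PA7255, PA7258, PA7457, PA7524, PA7539 and PA7696) endometriosis was induced in females by placing menstrual tissue in the peritoneal cavity, and lesion and eutopic endometrium are labelled 15 months after induction. The other 4 animals (PA5655, PA6303, PA6627 and PA6762) had spontaneous disease, whose duration the labels do not give. No animal without disease is among the 24 libraries, so the eutopic endometrium is that of a diseased animal throughout. The libraries were made from whole tissue, in which fewer cells of a type and less RNA per cell cannot be told apart. The reads were counted against human miRNA sequences, and the names are the human ones.

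Library totals were 2592999 to 7573913 counts. By these totals 3 counts corresponded to 0.396 to 1.16 CPM, the count relative to library size. Below that level a miRNA can go uncounted by counting error alone. The scaling named below shifts this level in each library. One miRNA of smooth muscle, miR-143-3p, took 4.88 to 12.3% of all counts in induced eutopic endometria and 17.2 to 71.7% in induced lesions. It took 10.1 to 31.0% in spontaneous eutopic endometria and 13.9 to 49.9% in spontaneous lesions. Levels below are CPM scaled with TMM (trimmed mean of M-values) factors over all 24 libraries unless library totals are named. Among the labelled tissues, epithelial miRNAs of the endometrium were present in every library, and 7 of 8 listed epithelial markers passed the filter on low counts.

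All 4 members were detected in every library, and all 4 passed the filter of at least 2 CPM in at least 2 libraries. miR-132-3p was the most abundant, with a mean of 121.6 CPM (up to 2163 counts), rank 135 of the 527 miRNAs that passed the filter. miR-212-3p followed with 18.2 CPM (33 to 303 counts, rank 256), miR-132-5p with 7.30 CPM (17 to 76 counts, rank 333) and miR-212-5p with 4.29 CPM (5 to 52 counts, rank 383). The order was the same in nearly all libraries. miR-132-3p exceeded miR-212-3p in 24 of 24 libraries, miR-212-3p exceeded miR-132-5p in 24 of 24, and miR-132-5p exceeded miR-212-5p in 22 of 24. The counts of the 5p strands were low enough for counting error to weigh on single libraries.

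The first comparison asked how the cluster differs between a lesion and the endometrium of the same animal in induced disease. With TMM scaling miR-132-3p was higher in induced lesions, by 1.58-fold, and was the one member that passed the test there, whereas by library totals alone its estimate lay below 0 (log2 difference −0.33). In the 8 eutopic endometria its level was lowest at 56.8 CPM, had a median of 73.8 CPM and was highest at 109.0 CPM in PA7696. In the 8 lesions it ran from 100.7 through a median of 124.9 to 140.7 CPM. The groups overlapped through 1 endometrium, that of PA7696: the endometria of the other 7 animals lay below every lesion. Within animals the lesion was higher in 7 of 8 with TMM and in 3 of 8 by library totals, and in PA7696 it was lower, at 0.923 of the endometrial level with TMM. The group means were 76.9 ± 15.4 CPM (SD, n = 8) and 120.9 ± 15.4 CPM (SD, n = 8). The log2 fold change was 0.66 ± 0.17 (SE, 95% interval 0.28 to 1.04), with an adjusted p of 0.0114 in a quasi-likelihood test (edgeR) blocked by animal.

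The passenger strand of the same hairpin, miR-132-5p, had 3.37, 4.88 and 9.43 CPM as its lowest, median and highest endometrial level and 5.24, 7.70 and 10.8 CPM in the lesions. The lesion was again higher in 7 of 8 animals with TMM (4 of 8 by library totals) and lower in PA7696, at 0.555 of the endometrial level. Its log2 fold change of 0.64 ± 0.28 (SE) was of the size of that of miR-132-3p but did not pass (adjusted p = 0.0826, edgeR). miR-212-3p, which has the seed of miR-132-3p, had 7.61, 11.2 and 17.4 CPM as its lowest, median and highest endometrial level and 9.60, 17.7 and 30.3 CPM in the lesions. It too was higher in 7 of 8 lesions with TMM (2 of 8 by library totals) and lower in PA7696, at 0.573 of the endometrial level, and the groups overlapped widely. Its log2 fold change was 0.57 ± 0.26 (SE, adjusted p = 0.0892, edgeR). miR-212-5p, the passenger strand of the second hairpin, had 1.21 to 4.71 CPM in the endometria and 1.45 to 6.28 CPM in the lesions, and was higher in 5 of 8 lesions with TMM (1 of 8 by library totals), with a log2 fold change of 0.28 ± 0.29 (SE, adjusted p = 0.437, edgeR).

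Thus 1 of the 4 members was called higher in induced lesions, beside 20.7% of all 507 miRNAs tested, so that the count of members called is near the background of the tissue contrast. PA7696 decided the calls of the other hairpin's main strand and of miR-132-5p. Without that animal miR-132-5p had a log2 fold change of 0.86 (adjusted p = 0.0161, edgeR) and miR-212-3p of 0.77 (adjusted p = 0.0181, edgeR), while miR-132-3p passed whichever of the 8 animals was left out.

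**Figure D1:**
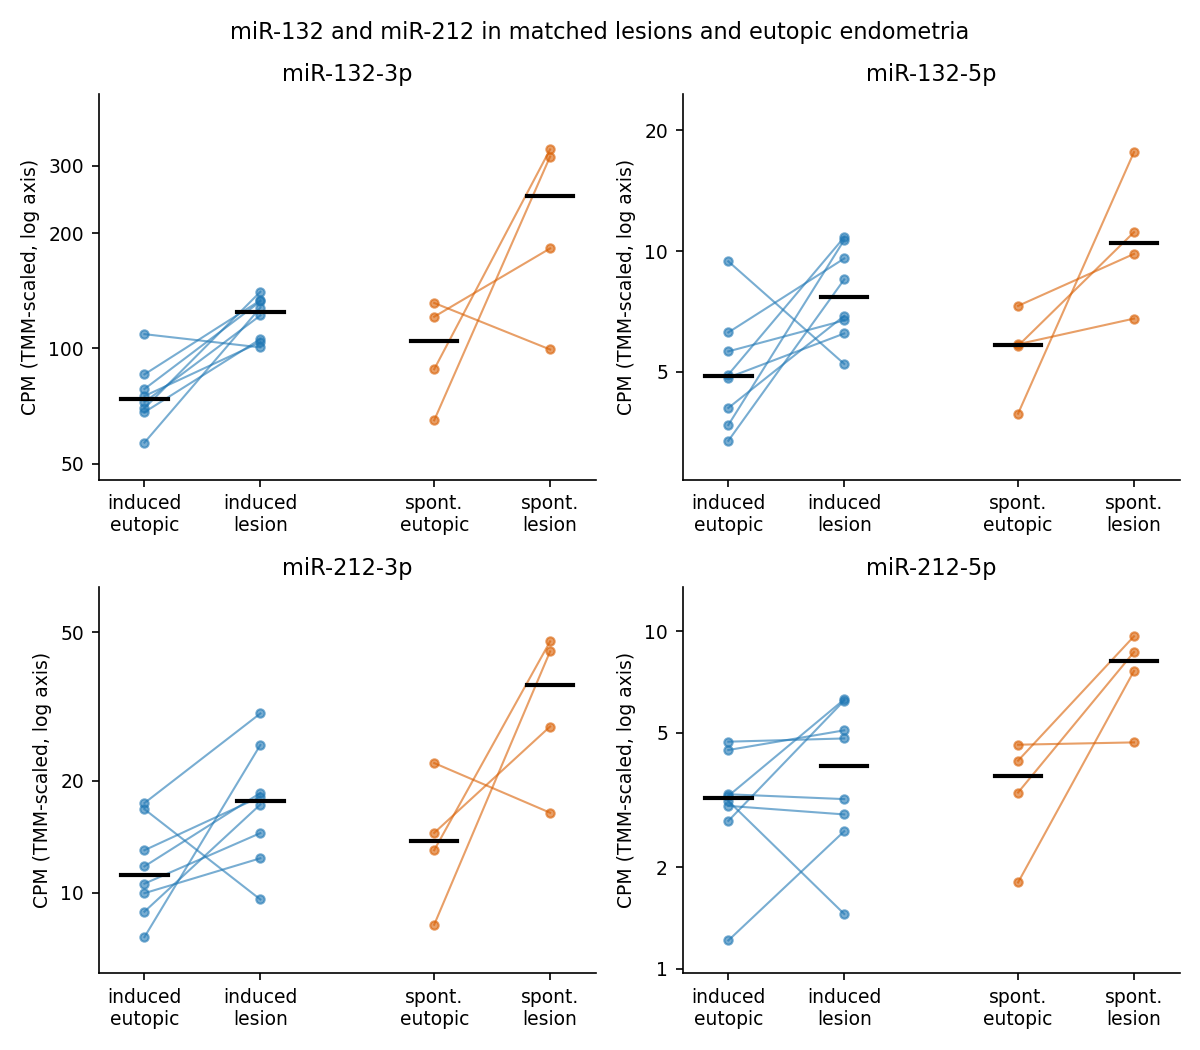
Level of each of the 4 mature miRNAs in every library (CPM scaled with TMM, log axis). Each point is a library, each line joins the eutopic endometrium and the lesion of 1 animal (blue, 8 induced; orange, 4 spontaneous), and black bars are group medians. With this scaling the lines of miR-132-3p rise in 7 of 8 induced and 3 of 4 spontaneous animals, and the highest lesions are those of PA6762 and PA6627.

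In spontaneous disease the point estimates of all 4 members were larger, and none passed with 4 animals. These estimates use the spontaneous lesions whose miR-132-3p levels were known when the cluster was proposed. miR-132-3p had 131.5, 121.1, 64.9 and 88.3 CPM in the endometria of animals PA5655, PA6303, PA6627 and PA6762, and 99.4, 182.6, 317.4 and 331.4 CPM in their lesions. The lesions of PA6627 and PA6762 held the highest levels of miR-132-3p among the 24 libraries, 4.89 and 3.75 times those of their endometria. In PA6303 the lesion was 1.51 times the endometrium, and in PA5655 it was lower, at 0.756 times, so that 3 of 4 lesions were higher under both scalings. The log2 fold change was 1.10 ± 0.51 (SE, 95% interval −0.10 to 2.30, adjusted p = 0.275, edgeR), an interval that holds both no difference and more than 4-fold.

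miR-212-3p had the same order over animals. Its endometrial levels in PA5655, PA6303, PA6627 and PA6762 were 22.3, 14.5, 8.21 and 13.0 CPM, and its lesion levels were 16.4, 27.95, 44.5 and 47.3 CPM. The lesion was 5.41 times the endometrium in PA6627 and 3.63 times in PA6762, and it was lower in PA5655, as for miR-132-3p, again with 3 of 4 lesions higher under both scalings. The log2 fold change was 1.21 ± 0.52 (SE, adjusted p = 0.265, edgeR).

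With TMM both 5p strands were higher in the lesion in 4 of 4 spontaneous animals, and by library totals miR-132-5p was higher in 4 of 4 and miR-212-5p in 2 of 4. miR-132-5p had 7.31, 5.86, 5.81 and 3.94 CPM in the endometria and 9.85, 6.79, 11.2 and 17.7 CPM in the lesions, in the same order of animals. miR-212-5p had 4.62, 4.14, 1.80 and 3.33 CPM in the endometria and 4.69, 9.67, 7.63 and 8.68 CPM in the lesions. With TMM the groups of miR-212-5p did not overlap, but the PA5655 lesion stood barely above the PA5655 endometrium, at 1.02 times. By library totals the groups overlapped, with endometria up to 5.59 CPM and lesions down to 2.83 CPM. Of all 485 miRNAs, 4.74% had, with TMM, every spontaneous lesion above every spontaneous endometrium. The log2 fold changes were 0.93 ± 0.46 (SE, adjusted p = 0.293) for miR-132-5p and 1.18 ± 0.49 (SE, adjusted p = 0.258) for miR-212-5p, both from edgeR.

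No member was called, beside 0.206% of the 485 miRNAs called higher, which is 1 miRNA. At an unadjusted p under 0.05, edgeR's quasi-likelihood test held 90 of the 485 miRNAs and 1 of the 4 members, miR-212-5p. DESeq2 called 48 miRNAs and edgeR-robust 45, the members among neither: the adjusted p of the 4 ranged from 0.118 to 0.252 in DESeq2 and from 0.150 to 0.301 in edgeR-robust.

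Over all 12 animals, miR-132-3p, miR-132-5p and miR-212-3p were higher in lesions with TMM scaling, while by library totals alone the 3 differences lay just below 0. This comparison includes the spontaneous lesions whose miR-132-3p levels were known beforehand. miR-132-3p rose from 85.1 ± 23.5 CPM (SD, n = 12) to 158.2 ± 81.0 CPM (SD, n = 12) and was higher in 10 of 12 lesions (6 of 12 by library totals). Its log2 fold change was 0.80 ± 0.21 (SE, 95% interval 0.35 to 1.255), which is 1.75-fold, with an adjusted p of 0.00565 (edgeR). miR-132-5p rose by 0.75 ± 0.24 on the log2 scale (SE, adjusted p = 0.0178, edgeR) and was higher in 11 of 12 lesions (8 of 12 by library totals). miR-212-3p rose by 0.78 ± 0.26 (SE, adjusted p = 0.0200, edgeR) and was higher in 10 of 12 (5 of 12 by library totals). miR-212-5p did not pass, with 0.59 ± 0.26 (SE, adjusted p = 0.0702, edgeR) and 9 of 12 lesions higher (3 of 12 by library totals). The 3 members called stand beside 25.6% of the 527 miRNAs called higher. For miR-212-5p the call turned on PA7696: without it the log2 fold change was 0.72 (adjusted p = 0.0271, edgeR). Without the block for the animal, miR-212-5p passed as well, at 0.67 (adjusted p = 0.0429, edgeR).

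These rises depended on how libraries were scaled. By library totals alone, where miR-143-3p and other abundant lesion miRNAs weigh on every CPM, the combined log2 differences were −0.064 for miR-132-3p, −0.10 for miR-132-5p, −0.089 for miR-212-3p and −0.27 for miR-212-5p, and no member was called. In induced disease they were −0.33, −0.34, −0.42 and −0.68 in the same order, and only the spontaneous estimates stayed above 0, at 0.51, 0.36, 0.62 and 0.60. Under that scaling the median of all miRNAs moved as well, to −0.98 in the combined comparison from −0.14 with TMM. Relative to the median miRNA, miR-132-3p stood 0.95 higher on the log2 scale with TMM and 0.92 higher by library totals, and miR-212-3p stood 0.93 and 0.89 higher. With library totals taken without miR-143-3p, an alternative added after the data had been seen, the combined log2 difference of miR-132-3p was 0.53, that of miR-132-5p was 0.47 (adjusted p = 0.0912, edgeR) and that of miR-212-3p was 0.50 (adjusted p = 0.0907, edgeR). The measurements thus give the place of the cluster relative to other miRNAs and no amount per cell.

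**Figure D2:**
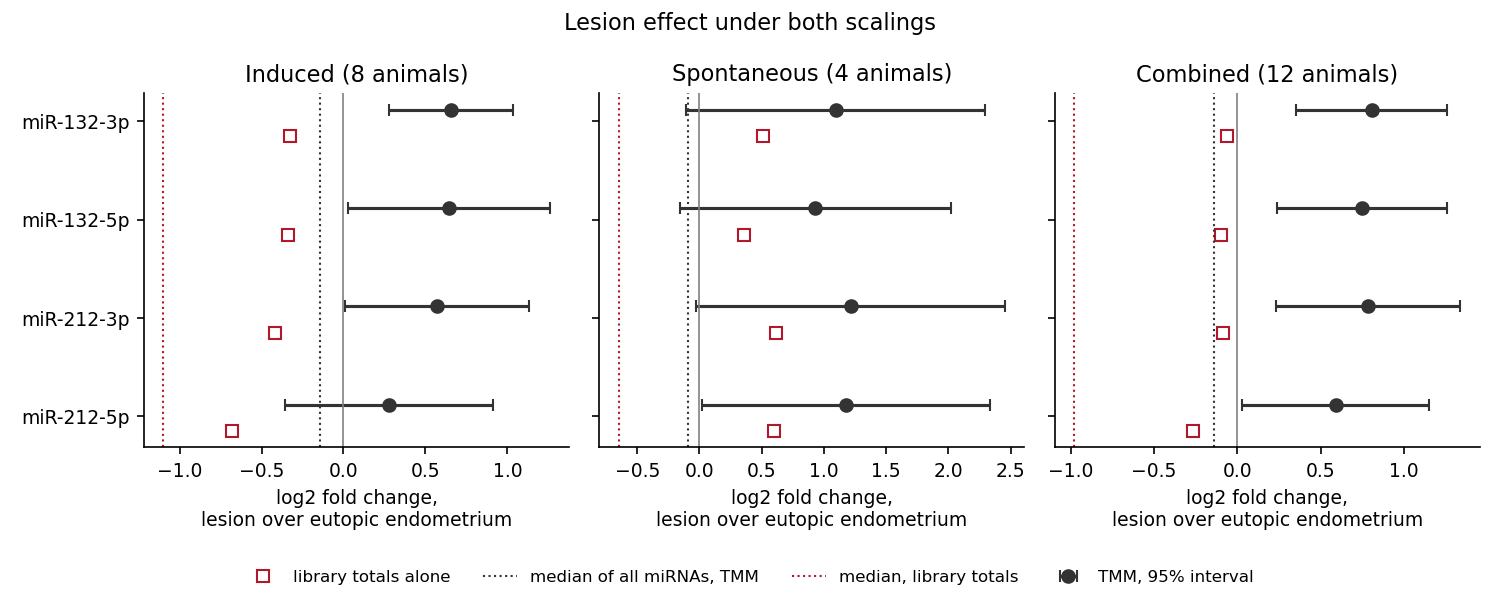
Log2 fold change of lesion over eutopic endometrium for the 4 mature miRNAs in induced, spontaneous and all animals. Filled circles with bars are TMM-scaled estimates with 95% intervals, open squares the estimates by library totals alone, and dotted lines the median of all miRNAs under each scaling. In the induced and combined panels the squares lie below 0 while the median of all miRNAs lies further below, at −1.10 and −0.98.

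The eutopic endometria of both diseases were compared next. miR-132-3p had 101.4 ± 30.5 CPM (SD, n = 4) in spontaneous and 76.9 ± 15.4 CPM (SD, n = 8) in induced disease. The ranges overlapped, with PA5655 and PA6303 above the highest induced endometrium and PA6627 and PA6762 inside the induced range. The log2 difference was 0.40 ± 0.23 (SE, 95% interval −0.10 to 0.90, adjusted p = 0.582, edgeR). For miR-132-5p, miR-212-3p and miR-212-5p it was 0.13, 0.27 and 0.079, with intervals that reached from −0.74 to 0.94 over the 3. By library totals all 4 differences were below 0, between −0.046 and −0.31. No member passed, and 0% of the 507 miRNAs tested were called by edgeR's quasi-likelihood test (54 at an unadjusted p under 0.05). DESeq2 called 3 miRNAs and edgeR-robust 11.

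Among lesions the cluster was higher in spontaneous disease, which is given as a description since this contrast was known when the cluster was proposed. miR-132-3p had 232.7 ± 111.3 CPM (SD, n = 4) in spontaneous and 120.9 ± 15.4 CPM (SD, n = 8) in induced lesions, a log2 difference of 0.97 ± 0.29 (SE). The spread was uneven: 3 of the 4 spontaneous lesions exceeded every induced lesion, and that of PA5655, at 99.4 CPM, lay below all 8. miR-212-3p differed by 0.94 ± 0.34 on the log2 scale (SE), miR-212-5p by 0.95 ± 0.39 and miR-132-5p by 0.53 ± 0.32. By library totals the differences were 1.10 for miR-132-3p and 1.09 for miR-212-3p.

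Whether the lesion effect itself differed between the diseases was tested with an interaction term, which uses the same lesion libraries. The spontaneous minus induced lesion effect was 0.45 ± 0.46 (SE, 95% interval −0.53 to 1.42) for miR-132-3p and 0.91 ± 0.52 (SE, 95% interval −0.21 to 2.04) for miR-212-5p, both with an adjusted p of 0.956 in edgeR. It was 0.30 ± 0.53 (SE, adjusted p = 0.968, edgeR) for miR-132-5p and 0.66 ± 0.55 (SE, adjusted p = 0.956, edgeR) for miR-212-3p. No member and 0% of the 527 miRNAs were called by edgeR's quasi-likelihood test, 16 miRNAs and no member had an unadjusted p under 0.05, and DESeq2 and edgeR-robust called 3 miRNAs each, no member among them. The intervals of the members leave room for effects of the same size and for a spontaneous effect over 2 times the induced one.

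Ratios between members are free of library scaling, and none of the 3 ratios within the cluster passed a test between lesion and endometrium. miR-212-3p made up 13.0 ± 2.24% (SD, 24 libraries) of the counts of both 3p strands, between 8.71% (exact 95% interval 6.07 to 12.01%) in the lesion of PA7696 and 18.5% (15.6 to 21.6%) in the lesion of PA7255. Over 12 animals the log2 ratio of miR-212-3p to miR-132-3p differed by −0.031 between lesion and endometrium (SD 0.32, higher in 5 of 12; p = 0.743, two-sided exact sign-flip permutation, adjusted p = 0.743 over 3 ratios). Between libraries this share varied more than counting error, with a chi-square of 2.78 per degree of freedom over the 24 libraries.

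miR-132-5p made up 6.0 ± 1.56% (SD, 24 libraries) of the counts of miR-132, from 3.39% (exact 95% interval 2.68 to 4.23%) in the lesion of PA6627 to 9.01% (5.67 to 13.4%) in that of PA5655. The log2 ratio of miR-132-5p to miR-132-3p differed by −0.072 between lesion and endometrium (SD 0.65, higher in 6 of 12, exact sign-flip permutation p = 0.712, adjusted p = 0.743). The extremes of the share were both spontaneous lesions, and their counting intervals do not meet, though they were picked as the lowest and highest of 24 libraries. Over the 24 libraries the chi-square of this share was 3.09 per degree of freedom.

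miR-212 gave a larger share of its reads from the 5p strand, with 19.6 ± 4.66% (SD, 24 libraries), from 12% to 28.6%. In induced disease the log2 ratio of miR-212-5p to miR-212-3p was lower in 6 of 8 lesions and differed by −0.29 (SD 0.38, exact sign-flip permutation p = 0.0781, adjusted p = 0.234). Over 12 animals the difference was −0.20 (SD 0.41, exact sign-flip permutation p = 0.111, adjusted p = 0.333). The spread between libraries was close to counting error here, with a chi-square of 1.51 per degree of freedom. Within the 4 spontaneous animals no exact test of a ratio can pass (the smallest p is 1 in 8), and the 3 differences were 0.10 for miR-212-3p to miR-132-3p, −0.17 for the miR-132 strands and −0.043 for the miR-212 strands. The 3 ratios also did not pass a test between the diseases, in eutopic endometria (adjusted p 0.609 to 0.683, exact permutation) or for the lesion difference (adjusted p 0.518 to 0.703, exact permutation).

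**Figure D3:**
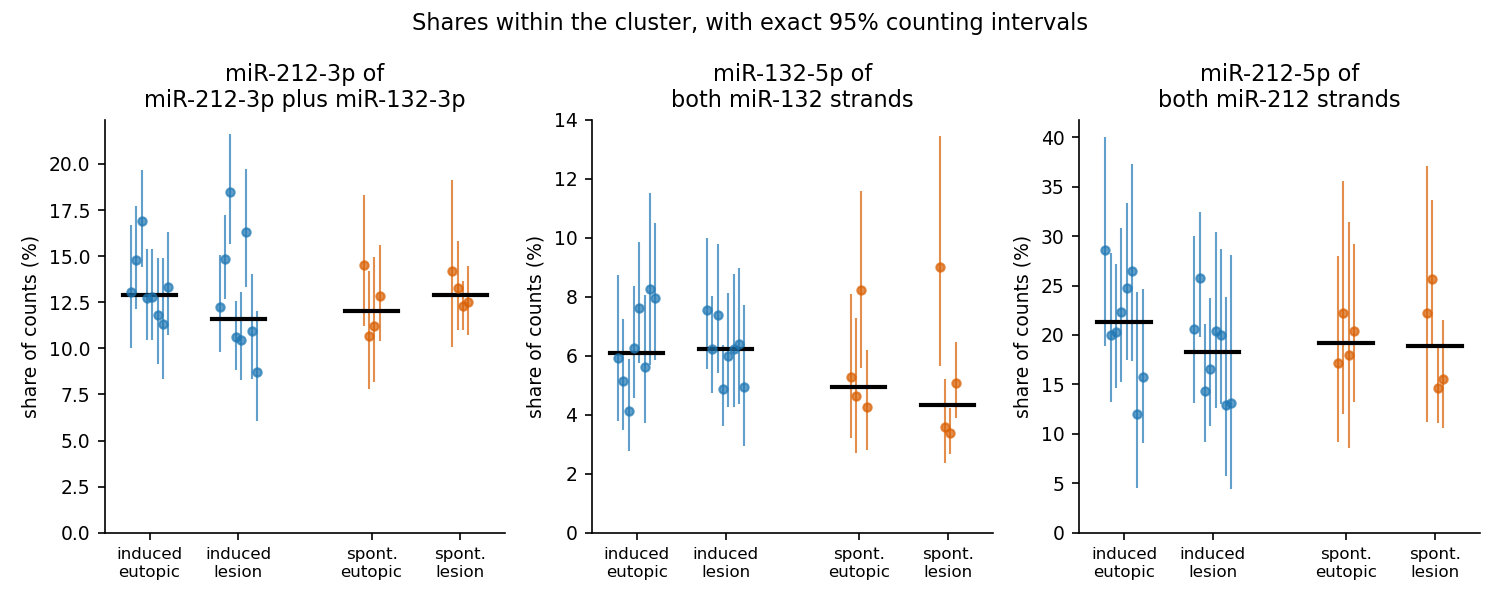
Shares of counts within the cluster in every library, in percent: miR-212-3p of both 3p strands, and the 5p strand of each hairpin. Points are libraries with exact 95% counting intervals, and black bars are group medians. The shares centre on 13.0, 6.0 and 19.6%, and the 4 groups overlap in each panel.

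The within-animal differences between lesion and endometrium went together for both hairpins. Over 12 animals the difference of miR-132-3p correlated with that of miR-212-3p at Pearson's r = 0.95 (100000 permutations, p = 2e-05, adjusted p = 0.00012 over 6 pairs of members, Spearman's rho = 0.86, p = 0.00059). Without PA6627 and PA6762, the 2 animals farthest from the median, r was 0.90, and within the 8 induced animals it was 0.94. The members of a pair come from the same library and share its scaling factor.

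The strands of miR-212 correlated at r = 0.89 (permutation p = 6e-05, adjusted p = 0.00018, rho = 0.93, permutation p = 4e-05), and at 0.75 without the 2 farthest animals. Those of miR-132 correlated more loosely, at r = 0.63 (permutation p = 0.0294, adjusted p = 0.0353, rho = 0.64, permutation p = 0.0275), and at 0.57 without the 2 farthest animals. miR-132-3p and miR-212-5p had r = 0.78 (permutation p = 0.00225, rho = 0.64, permutation p = 0.0276), and miR-132-5p and miR-212-3p had r = 0.71 (permutation p = 0.0103, rho = 0.65, permutation p = 0.0245). For these pairs r was 0.59 and 0.44 without the 2 farthest animals. Between miR-132-5p and miR-212-5p r was 0.58 (permutation p = 0.0472, rho = 0.54, permutation p = 0.0741) and rested on PA6762 and PA7696, without which it was 0.15.

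With TMM, the 2 animals whose lesion held less miR-132-3p than the endometrium, PA7696 and PA5655, were also the ones whose lesion held less miR-212-3p. By library totals miR-132-3p was higher in only 6 of 12 lesions and miR-212-3p in 5 of 12. In PA5655 both 5p strands were at or above the endometrial level with TMM, while in PA7696 all 4 members were lower in the lesion. For miR-212-5p in PA5655 this rests on 10 counts in the lesion and 12 in the endometrium. By library totals that lesion was at 0.852 of the endometrial level.

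**Figure D4:**
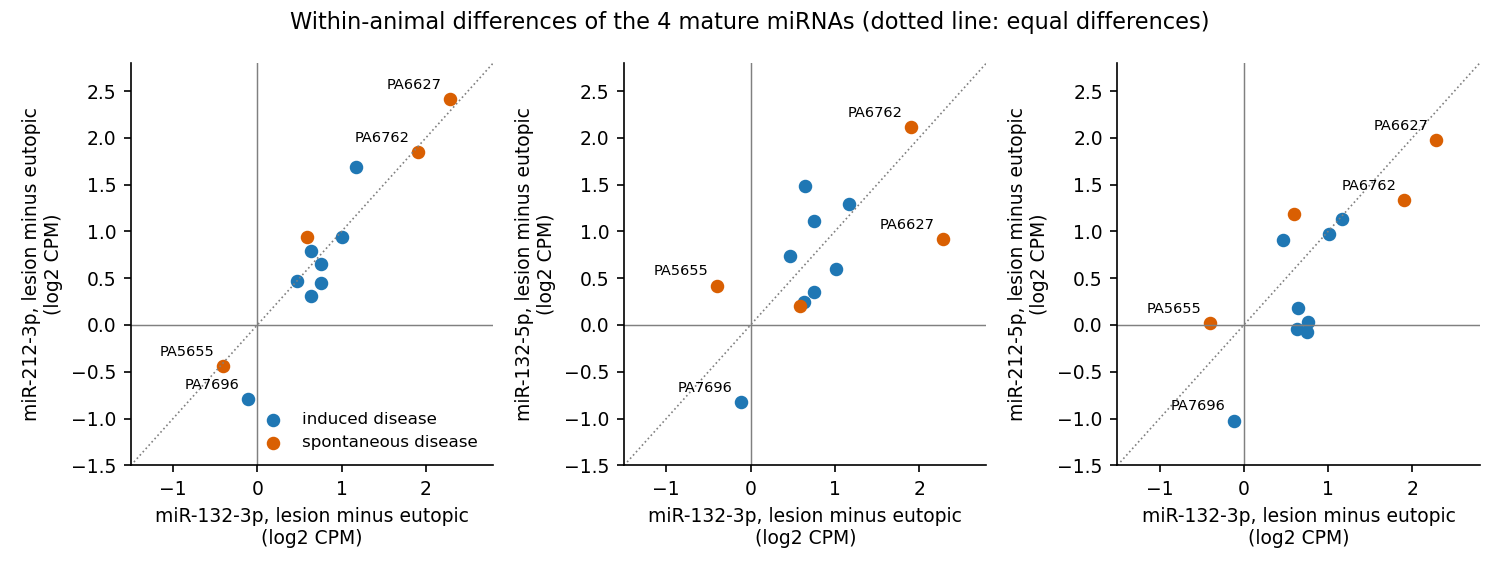
Difference between lesion and eutopic endometrium within each of the 12 animals (log2 CPM, TMM-scaled, prior count of 1), with miR-132-3p on the x axis and miR-212-3p, miR-132-5p or miR-212-5p on the y axis. Blue points are induced and orange points spontaneous animals, and the dotted line marks equal differences. The points of miR-212-3p lie along the line (r = 0.95), with PA6627 and PA6762 at the upper end and PA5655 and PA7696 in the lower left.

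Across the 24 libraries and 526 other miRNAs, the level of miR-212-3p followed that of miR-132-3p most closely (r = 0.92 on log2 CPM, rank 1), miR-132-5p ranked 3 (0.78) and miR-212-5p ranked 16 (0.67). The 5 most similar miRNAs outside the cluster were miR-452-5p (0.79), miR-224-5p (0.78), miR-326 (0.75), miR-23a-3p (0.75) and miR-224-3p (0.74). miR-224 and miR-452 lie next to each other in an intron of a GABA receptor gene in human. With each group's mean removed, miR-212-3p remained first (0.83), and the next were miR-224-5p (0.65), miR-338-5p (0.60), miR-452-5p (0.59), miR-378g (0.58), miR-132-5p (0.55) and miR-1301-3p (0.53). Of these, miR-338-5p and miR-378g had low means, of 1.77 and 2.54 CPM, so counting error weighs on their correlations. All these correlations are descriptions over libraries that differ in tissue and disease and that share their scaling.

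Of miRNAs known to be induced in inflammation, 9 of 10 were measured, and 3 rose and 0 fell in the combined comparison with TMM (1 and 1 by library totals, only miR-223-3p rising). Their median log2 fold change was 0.61, beside −0.14 over all miRNAs, of which 25.6% were called higher with TMM. miR-21-5p, an abundant miRNA of activated and fibrotic tissue, rose by 1.05 ± 0.19 (SE, adjusted p = 7.0e-04, edgeR), and miR-146a-5p, a target of NF-κB that dampens its signalling, rose by 1.86 ± 0.42 (SE, adjusted p = 0.00219, edgeR). The third was miR-223-3p of myeloid cells, with 2.48 ± 0.53 (SE, adjusted p = 0.00166, edgeR), named because it passed. miR-146b-5p (0.98, adjusted p = 0.0516, edgeR) and miR-21-3p (0.27, adjusted p = 0.276, edgeR) did not pass. In induced disease 3 of 9 rose and 0 fell with TMM, beside 20.7% of all miRNAs called higher, while by library totals 1 rose and 2 fell. In spontaneous disease 0 passed, beside 0.206% of the 485 miRNAs called higher, with a median of 0.88 beside −0.094 over all miRNAs.

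Of 13 miRNAs known as neuronal or as regulated by CREB or activity, the setting in which the cluster is best known, 9 were measured, and 2 rose and 1 fell in the combined comparison with TMM (1 and 3 by library totals, with miR-138-5p rising). Their median was −0.17, beside −0.14 over all miRNAs, of which 25.6% were called higher with TMM. miR-218-5p rose by 1.21 ± 0.24 (SE, adjusted p = 0.00106, edgeR) and miR-134-5p, which acts on dendritic spines in rat, fell by 0.81 ± 0.21 (SE, adjusted p = 0.00467, edgeR). miR-138-5p, named because it passed, rose by 3.10 ± 0.49 (SE, adjusted p = 3.6e-04, edgeR) from a low mean of 2.94 CPM. miR-128-3p (−0.24, adjusted p = 0.278, edgeR) and miR-153-3p (1.30, adjusted p = 0.0565, edgeR) did not pass. miR-124-3p, the most neuron-specific of the list, did not reach the filter.

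Of 12 miRNAs linked to endothelium and vessel growth, 11 were measured, and 7 rose and 1 fell in the combined comparison with TMM (0 and 4 by library totals). Their median was 0.81, beside −0.14 over all miRNAs, of which 25.6% were called higher with TMM. miR-27b-3p, the most abundant of them, rose by 0.73 ± 0.27 (SE, adjusted p = 0.0354, edgeR), the endothelial miR-126-5p by 1.19 ± 0.22 (SE, adjusted p = 7.0e-04, edgeR) and miR-378a-3p by 1.11 ± 0.26 (SE, adjusted p = 0.00260, edgeR). miR-92a-3p did not pass (−0.26, adjusted p = 0.101, edgeR). The member that fell was miR-210-3p, a target of hypoxia-inducible factor, with −2.31 ± 0.42 (SE, adjusted p = 6.8e-04, edgeR). In spontaneous disease 0 of the 11 passed, beside 0.206% of the 485 miRNAs called higher. Their median there was 0.62, beside −0.094 over all miRNAs. By library totals the combined medians of the inflammation, neuronal and endothelial lists were −0.28, −0.96 and −0.037, beside −0.98 over all miRNAs. The shares of all miRNAs called by library totals are not given here, so the counts of these lists under that scaling lack that background.

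Markers of other cell types also differed between the tissues, in both directions, and their part in the levels of the cluster was not tested. All 7 measured epithelial miRNAs were lower in lesions in the combined comparison, and all 4 of smooth muscle, all 4 of erythroid cells and both of endothelium (miR-126-3p and miR-126-5p) were higher. Of 6 leukocyte miRNAs 3 were called higher. These counts, with TMM, stand beside 25.6% of all 527 miRNAs called higher. The share called lower is not given here, so the lower calls, also those of the lists above, have no such background. The epithelial median log2 fold change was −2.47, beside −0.14 over all miRNAs. Shares of all miRNAs called by library totals are not given either. By library totals the epithelial, smooth muscle and erythroid calls stood, while no endothelial and 1 leukocyte miRNA were called higher and 1 leukocyte miRNA lower. No listed leukocyte, erythroid or smooth muscle marker failed the filter.

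The summed level of the 6 leukocyte miRNAs changed in the direction of miR-132-3p in 12 of 12 animals with TMM and in 10 of 12 by library totals. It was 587.5 to 1279 CPM in induced eutopic endometria, 797.8 to 3715 CPM in induced lesions, 747.6 to 2198 CPM in spontaneous eutopic endometria and 1266 to 12419 CPM in spontaneous lesions. In PA5655 it fell from 2198 to 1266 CPM and in PA7696 from 1279 to 1198 CPM, the animals in which miR-132-3p was lower in the lesion. The sizes of the changes were not alike in all animals. In PA6303 the sum rose from 978.9 to 12419 CPM with miR-132-3p at 1.51 times the endometrium. In PA7524 it rose from 901.6 to 1108 CPM with miR-132-3p at 2.25 times. For this sum and those below, the share of all miRNAs with such a count of animals was not computed.

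The sum of both miR-126 strands changed in the direction of miR-132-3p in 11 of 12 animals with TMM and in 10 of 12 by library totals. It was 1466 to 6885 CPM in induced eutopic endometria, 6228 to 13727 CPM in induced lesions, 2508 to 11939 CPM in spontaneous eutopic endometria and 10461 to 18515 CPM in spontaneous lesions. With TMM the corresponding counts of animals were 10 of 12 for erythroid, 9 of 12 for smooth muscle and 2 of 12 for epithelial miRNAs, and by library totals they were 9, 5 and 6 of 12. For the inflammation, neuronal and vessel-growth lists above they were 9, 6 and 10 of 12 with TMM, and 9, 8 and 5 of 12 by library totals. The epithelial sum was lower in the lesion in every animal under both scalings, between 6311 and 20177 CPM in induced endometria and between 487.2 and 7590 CPM in induced lesions. In spontaneous disease it was 5022 to 13847 CPM in endometria and 236.8 to 2233 CPM in lesions. The erythroid sum ran from 282.4 to 1578 CPM in induced endometria, from 960.4 to 32585 CPM in induced lesions, from 242.1 to 19378 CPM in spontaneous endometria and from 907.6 to 42370 CPM in spontaneous lesions.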

How the data were processed

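Total RNA of 12 lesions and 12 matched eutopic endometria was sequenced after small-RNA library preparation. The authors trimmed reads with Trim Galore 0.3.3, counted them against human miRNAs with miRDeep2 and deposited raw counts per mature miRNA and precursor. Their own test was edgeR-robust (edgeR 3.22.5). For reads that match several miRNAs, their handling is not given in the sources used here. Models were fitted to the deposited counts with edgeR 4.0.16 and limma 3.58.1 (R 4.3.3): TMM factors, robust quasi-likelihood test, a filter of 2 CPM or more in 2 or more libraries of the fit, Benjamini-Hochberg adjustment over all miRNAs tested and a threshold of 0.05. The fit was checked on simulated data. The standard error is the log2 fold change divided by the square root of F. Library totals were 2592999 to 7573913 counts. Within groups the smallest chi-square per degree of freedom between libraries was 134.6 over 68 pairs, so none was a copy of another.

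The animal named in the labels paired the tissues and entered as a block wherever both were compared. The deviations of both tissues of an animal from their group means correlated at −0.14 to 0.48 (median 0.18, above 0.1 in 7 of 12 animals). Ratios used a pseudocount of 0.5 and log2 CPM a prior count of 1. Permutation tests were coded directly. Exact (Clopper-Pearson) intervals came from scipy 1.17.1, and these intervals cover counting error only.

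The members, the lists of miRNAs and the tests were chosen with earlier results of these data known. Other miRNAs are named by likeness to miR-132-3p (the 5 highest by each measure) or as the up to 4 most abundant of a list. Alternatives were DESeq2 1.42.0 size factors and Wald test, library totals with and without miR-143-3p, no filter, filterByExpr, summed precursors, edgeR-robust, no block, other pseudocounts and each animal left out. No sequences are shown.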

Additional observations from a re-analysis of the deposited data

Results flagged for a closer look

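Of 28 groups of 4 or 8 values examined, 1 had a library that stood apart from the rest. The lowest log2 CPM of miR-212-5p in induced eutopic endometrium, that of PA7539, was 0.49 against 1.55 in the nearest library, and the gap made up 0.590 of the range of the group. It rests on 6 counts. Chance flags about 1 in 20 groups by this measure.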

How the results depend on the processing

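Scaling by library totals turned the sign of 12 differences: the combined values became −0.064 (miR-132-3p), −0.10 (miR-132-5p), −0.089 (miR-212-3p) and −0.27 (miR-212-5p), the induced ones −0.33, −0.34, −0.42 and −0.68, and those between eutopic endometria −0.046, −0.28, −0.18 and −0.31. With totals taken without miR-143-3p, chosen after seeing the data, miR-132-3p no longer passed in induced disease (0.37, adjusted p = 0.113, edgeR), nor did miR-132-5p (0.47) and miR-212-3p (0.50) in the combined comparison, and the eutopic differences of miR-132-5p, miR-212-3p and miR-212-5p were −0.13, −0.0079 and −0.15. The cause was not tested, beyond the shift of all miRNAs that these scalings make. Without the replicate block the combined miR-212-5p passed (0.67), and no other member's call changed with the block.

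Of all miRNAs in the spontaneous comparison, where 1 was called, DESeq2 called 48, edgeR-robust 45, no filter 68, library totals 14 and totals without miR-143-3p 9, and DESeq2 size factors, filterByExpr, no replicate block, summed precursors and each animal left out gave 0. Between eutopic endometria DESeq2 called 3, edgeR-robust 11 and fits without 1 animal 0 to 8, and for the difference between diseases DESeq2 and edgeR-robust called 3 each.

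With each animal left out in turn, induced miR-132-5p ranged from 0.54 to 0.86 and miR-212-3p from 0.43 to 0.77, combined miR-212-5p from 0.45 to 0.72, and the difference between diseases of miR-132-5p from −0.11 to 0.53. Between eutopic endometria miR-132-5p ranged from −0.0071 to 0.27, miR-212-3p from −0.0090 to 0.47 and miR-212-5p from −0.086 to 0.31. The log2 ratio of miR-132-5p to miR-132-3p ranged from −0.16 to 0.045 (combined), −0.15 to 0.076 (induced), −0.50 to 0.23 (spontaneous) and −0.48 to 0.25 (between diseases), that of miR-212-3p to miR-132-3p from −0.082 to 0.028 (combined), and that of miR-212-5p to miR-212-3p from −0.21 to 0.10 (spontaneous). Beyond these, 406 values under omitted animals and 247 under other settings kept their direction and side of the threshold. A further 7 values under omitted animals and 13 under other settings were marked as moved and are not named here. The 5 to 76 counts per library of the 5p strands limit their precision.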
